A study of Mus musculus with 6 samples.

Results

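The globin genes and Klf1 were examined at 3 loci in mouse bone marrow cells of the LSK gate (no lineage markers, with Sca-1 and c-Kit on the surface), a fraction that includes blood stem cells and early progenitors. The loci were taken by position on the mouse build mm9: the beta globin cluster (chr7:110940000-111070000), the alpha globin cluster (chr11:32125000-32210000) and the Klf1 locus (chr8:87415000-87440000). They hold 129, 85 and 25 windows of 1 kb with a listed CpG, 239 of the 2335885 such windows on autosomes. Whole-genome bisulfite sequencing gave the methylation of CpGs in 3 wild-type samples (WT) and 3 samples labelled as Tet2/3 double knockout (DKO). Tet2 and Tet3 are enzymes that oxidise 5-methylcytosine, and the study asked what their loss does to methylation in these cells. The labels give no strain, age, Cre driver or deletion schedule. The samples are labelled biological replicates, and whether 1 sample is 1 animal is not stated, so p-values measure the spread between these samples. A methylation table holds no marker transcripts, so the LSK label could not be checked against expressed genes.

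Haemoglobin is built from alpha-like and beta-like globin chains whose genes lie in clusters on different chromosomes. Within each cluster, embryonic genes are used first and adult genes later, and distant enhancers drive both sets in red cell precursors: the locus control region beyond the embryonic end of the beta cluster, and elements largely within introns of the neighbouring gene Nprl3 for the alpha cluster. Klf1 is a red-cell transcription factor that binds CACC-type sequences and activates adult beta globin, and the GATA factors bind sites in many of the same promoters. The globin genes reach high expression only after cells leave the stage sorted here.

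The promoters differ in how many CpGs they offer to a methylation assay, which is why they are shown before the values. Each line gives the 250 bases before the start of transcription, 5′ to 3′ on the gene's strand, from RefSeq (GRCm38.p6), with CpGs in capitals. Hbb-bt and Hbb-bs (minus strand) are the adult beta globin genes, Hbb-y (minus) is embryonic epsilon-y globin, Hba-x (plus) is embryonic zeta globin, Hba-a1 (plus) is an adult alpha globin gene, Klf1 is on the plus strand, and Nprl3 (minus), a regulator of TORC1 signalling, is the neighbour that hosts alpha globin enhancers.
Hbb-bt: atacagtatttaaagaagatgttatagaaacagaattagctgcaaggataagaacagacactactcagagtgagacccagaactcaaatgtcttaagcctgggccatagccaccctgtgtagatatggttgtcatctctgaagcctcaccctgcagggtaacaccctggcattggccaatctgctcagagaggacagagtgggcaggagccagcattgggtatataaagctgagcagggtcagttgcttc
Hbb-bs: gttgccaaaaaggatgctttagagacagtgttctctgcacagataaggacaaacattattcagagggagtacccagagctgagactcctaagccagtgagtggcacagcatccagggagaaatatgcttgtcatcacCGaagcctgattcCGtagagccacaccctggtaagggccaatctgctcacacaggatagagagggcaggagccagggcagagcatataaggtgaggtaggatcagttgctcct
Hbb-y: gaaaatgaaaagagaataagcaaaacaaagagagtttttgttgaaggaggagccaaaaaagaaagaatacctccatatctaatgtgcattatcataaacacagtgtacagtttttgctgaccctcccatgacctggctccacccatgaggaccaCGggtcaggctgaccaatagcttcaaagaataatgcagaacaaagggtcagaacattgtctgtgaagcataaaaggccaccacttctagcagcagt
Hba-x: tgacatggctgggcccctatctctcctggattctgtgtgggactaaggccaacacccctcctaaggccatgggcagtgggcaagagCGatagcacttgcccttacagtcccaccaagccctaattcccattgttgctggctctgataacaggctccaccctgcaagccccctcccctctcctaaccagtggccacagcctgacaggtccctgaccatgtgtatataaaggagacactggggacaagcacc
Hba-a1: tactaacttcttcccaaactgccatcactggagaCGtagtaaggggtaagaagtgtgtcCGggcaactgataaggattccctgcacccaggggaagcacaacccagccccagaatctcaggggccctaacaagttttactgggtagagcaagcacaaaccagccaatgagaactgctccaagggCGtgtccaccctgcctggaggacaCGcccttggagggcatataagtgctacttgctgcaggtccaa
Klf1: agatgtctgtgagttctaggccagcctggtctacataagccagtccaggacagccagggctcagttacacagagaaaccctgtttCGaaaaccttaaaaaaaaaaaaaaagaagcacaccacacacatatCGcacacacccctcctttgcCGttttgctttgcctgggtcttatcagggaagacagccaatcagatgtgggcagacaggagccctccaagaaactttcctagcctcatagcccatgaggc
Nprl3: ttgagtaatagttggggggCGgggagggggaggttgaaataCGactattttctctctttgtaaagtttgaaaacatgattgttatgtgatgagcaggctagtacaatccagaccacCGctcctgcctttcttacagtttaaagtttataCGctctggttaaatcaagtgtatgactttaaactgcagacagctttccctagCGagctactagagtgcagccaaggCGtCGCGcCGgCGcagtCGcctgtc
Over 300 bases, from 250 before to 50 after the start, Hbb-bt holds 1 CpG, Hbb-y 1, Hbb-bs 2, Hba-x 2, Klf1 3, Hba-a1 4 and Hba-a2 4. Nprl3 holds 20 and Mpg, a DNA repair glycosylase gene at the edge of the alpha locus, holds 22. The median over the RefSeq promoters is 7, and 38.0% have 4 or fewer. The member symbols Hbb-b1 and Hbb-b2 have no place on this chromosome assembly: the RefSeq table lists the adult beta genes there as Hbb-bs and Hbb-bt, and these are described in their place. Which beta globin haplotype the mice carried is not given in the sources used here. Hbb-bh1 is named only. The promoter of Hba-a2 is the same as that of Hba-a1 over 297 of 297 bases once shifted by 3, so reads from these near-identical copies may be assigned wrongly or dropped, and their values are uncertain.

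Short motifs were searched on both strands over the same 300 bases. The GATA-type motif GATAAG lies at -204 in Hbb-bt, -209 in Hbb-bs, -182 in Hba-a1 and -185 in Hba-a2, and on the opposite strand at -81 in Klf1. It occurs in 7.44% of all RefSeq promoters. The CACC-type motif CCNCNCCC, where N is any base, lies at -107 in Hbb-bt, -93 in Hbb-bs and -83 in Hba-x, and occurs in 49.5% of all promoters. CCAAT, the box bound by NF-Y-type factors, was found in Hbb-bt, Hbb-bs, Hbb-y, Hba-a1, Hba-a2 and Klf1, and in 37.4% of all promoters. Mpg and the theta globin gene Hbq1b of the alpha cluster hold it too. Of the TATA-type motifs, which overlap each other, ATATAA was found at -29 in Hbb-bt, -30 in Hbb-bs, -29 in Hba-x, -28 in Hba-a1 and -31 in Hba-a2, and in 9.82% of all promoters. TATAAA was found at -28 in Hbb-bt and in Hba-x, and in 13.6% of all promoters. On the opposite strand, TATAAA lies at -107 in Nprl3 and ATATAA at -156 in Hbq1b. A match describes these letters only and is not a measured binding site.

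Depth set what could be seen. The mean depth was 3.46 to 3.56 reads per CpG in WT and 4.09 to 5.46 in DKO, where a read is counted at each CpG it covers. The level over autosomes, methylated reads as a share of all reads, was 80.8% ± 0.314 for the WT samples and 81.6% ± 0.826 for the DKO samples (SD, n = 3 each). Reads of the mitochondrial genome, which is taken as unmethylated, counted as methylated in 1.28% of WT calls and 1.71% of DKO calls. On chromosome 3, where Tet2 lies, the 4 kb from 133132001 held 109, 165 and 136 reads in WT and 0 in each DKO sample. On chromosome 6, where Tet3 lies, the 3 kb from 83352001 held 208, 231 and 169 reads in WT and 14, 0 and 0 in DKO. Bisulfite does not separate 5-methylcytosine from 5-hydroxymethylcytosine, so each level is the sum of these marks.

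The 3 loci stood at different levels in both groups, in the reverse order of their CpG density. The beta cluster, with 607 CpGs or 4.67 per kb, was the most methylated. Its level was 87.1%, 87.7% and 89.4% in WT replicates 1 to 3 and 88.5%, 90.5% and 90.6% in DKO replicates 1 to 3. The alpha cluster, with 891 CpGs or 10.5 per kb, had 69.6%, 69.7% and 66.6% in WT and 72.0%, 69.9% and 73.3% in DKO. The Klf1 locus, with 512 CpGs or 20.5 per kb, had 47.3%, 46.8% and 43.4% in WT and 43.8%, 45.9% and 48.6% in DKO. In all 6 samples the beta cluster lay above the alpha cluster and the alpha cluster above the Klf1 locus, and the samples of one locus did not overlap those of another.

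**Figure D1:**
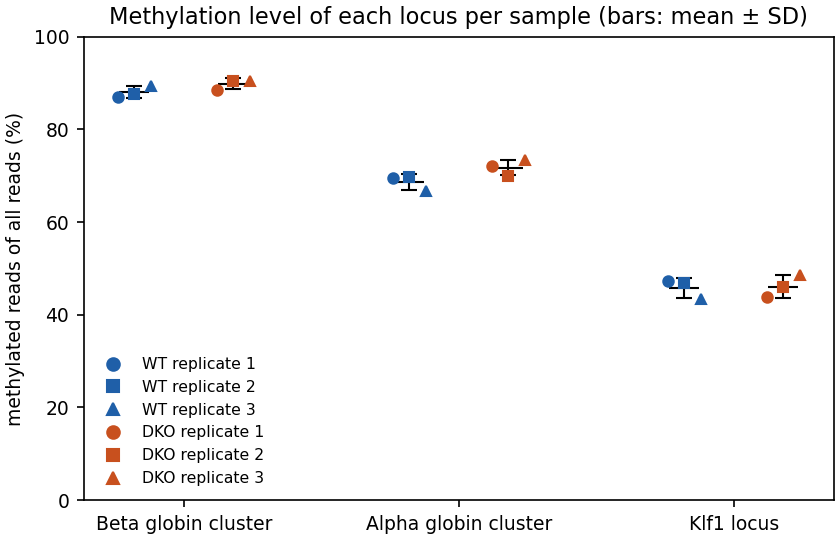
Methylation level (percent of reads methylated, y axis from 0) of the beta globin cluster, the alpha globin cluster and the Klf1 locus. Points are samples (blue WT, orange DKO, symbols for replicates 1 to 3) and black bars give the mean ± SD; the loci are separate from each other, and only in the alpha cluster do the DKO points all lie above the WT points.

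Between the groups, the alpha cluster was the only one of the 3 loci in which the DKO samples all exceeded the WT samples. Its WT mean was 68.6% ± 1.75 and its DKO mean 71.8% ± 1.71 (SD, n = 3 each). The difference of 3.15 ± 1.41 points (SE) had an exact permutation p = 0.1 (two-sided), which no comparison of 3 samples with 3 can go below. The gap between the groups was narrow: the lowest DKO sample, at 69.9%, lay just above the highest WT sample, at 69.7%. With other choices of CpGs or equal weights for CpGs the difference was 2.25 to 4.80 points. The beta cluster had 88.1% ± 1.21 in WT and 89.8% ± 1.15 in DKO, a difference of 1.75 ± 0.965 points (exact permutation p = 0.2), and the groups overlapped. The Klf1 locus had 45.9% ± 2.13 and 46.1% ± 2.40, a difference of 0.23 ± 1.85 points (exact permutation p = 0.9), with overlapping groups. This value depends on the CpGs used: it was 2.62 points, with the DKO samples all above the WT samples, over the 261 CpGs that each sample had read, and -1.46 points over the 67 CpGs with at least 3. It also changed sign without WT replicate 3 (-0.99 points) or DKO replicate 3 (-1.0).

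Whether the groups differ more in one globin cluster than in the other was tested on the gap between the clusters within each sample. The beta level exceeded the alpha level by 17.5, 18.1 and 22.8 points in WT and by 16.5, 20.5 and 17.2 points in DKO. The mean gap was 19.5 ± 2.92 points for WT and 18.1 ± 2.15 for DKO (SD, n = 3 each), so it differed by -1.39 ± 2.09 points (SE, exact permutation p = 0.5). A different response of the alpha and beta clusters was thus not detectable, and without WT replicate 3 the difference was 0.29 points. The clusters were also read to unequal depth: reads per CpG, relative to each sample's autosomal mean, were 0.722 to 0.815 in the beta cluster, 0.937 to 1.23 in the alpha cluster and 0.864 to 1.11 in the Klf1 locus. The part of depth in these levels was not tested.

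Single CpGs separated the loci further. Among CpGs with at least 10 pooled reads in each group, 174 in the beta cluster, 80.5% were methylated at 80% or more in WT and 84.5% in DKO, and 2.30% were below 20% in either group. In the alpha cluster (468 CpGs) 63.7% were at 80% or more in WT and 64.3% in DKO, while 19.7% and 17.9% were below 20%. In the Klf1 locus (248 CpGs) 41.5% and 44.4% were at 80% or more, and 48.0% and 47.6% below 20%. The beta cluster was thus mostly methylated with few low CpGs, and the Klf1 locus was split between methylated and unmethylated CpGs.

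**Figure D2:**
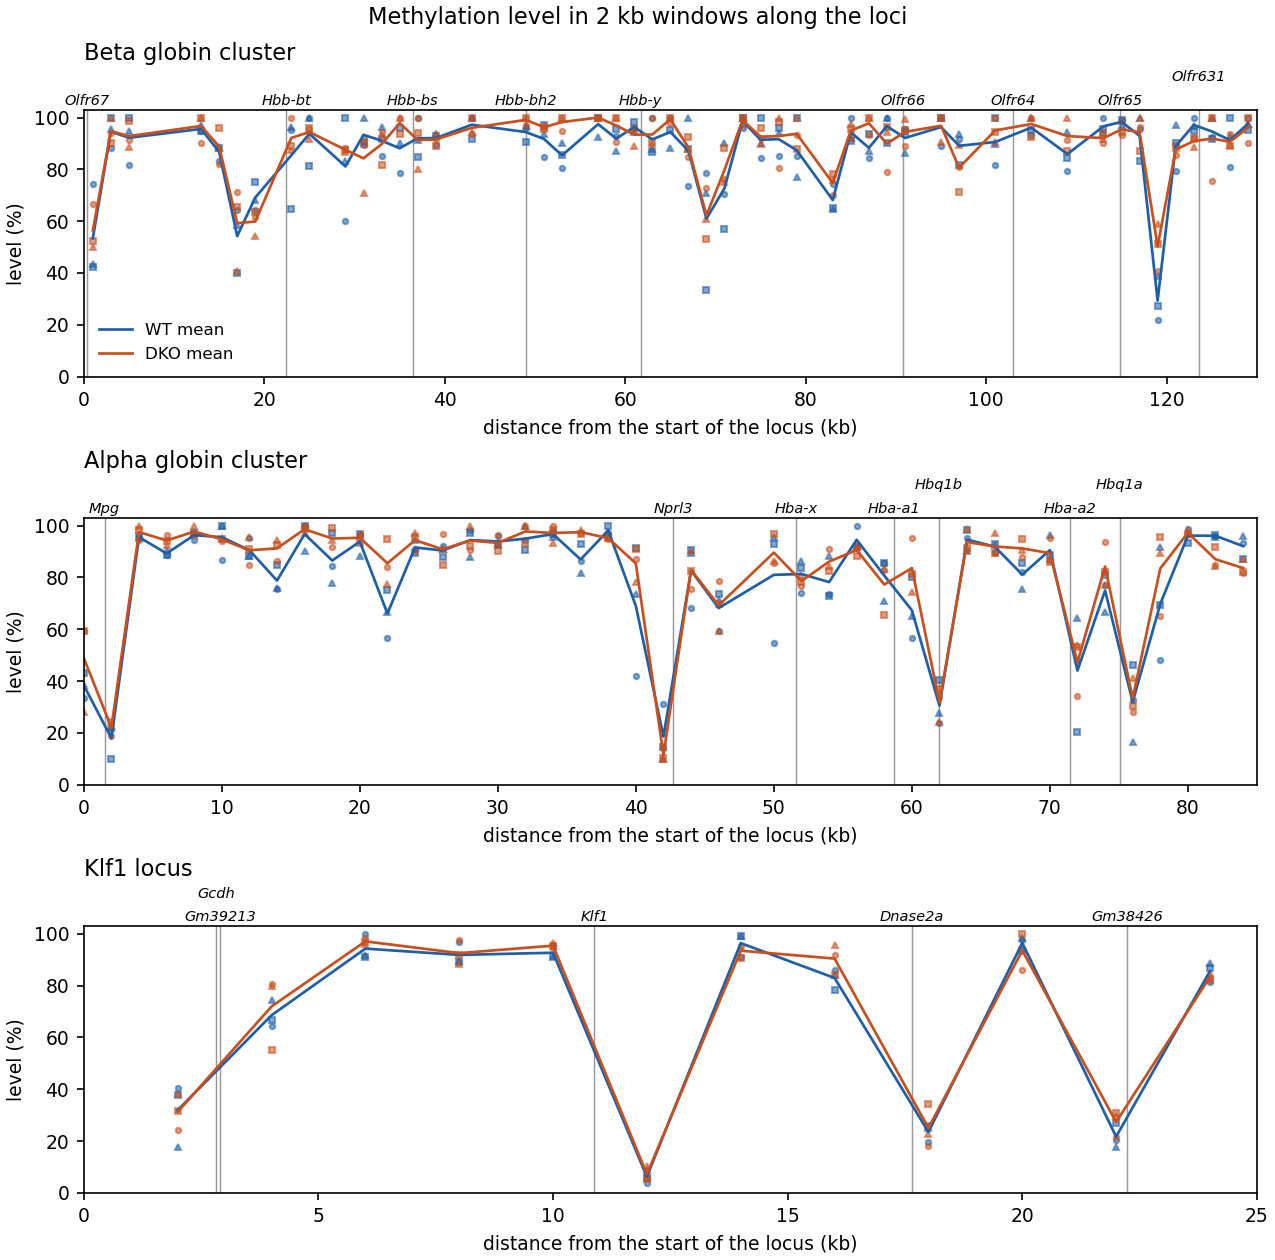
Methylation level (percent) in 2 kb windows along the beta globin cluster, the alpha globin cluster and the Klf1 locus, against the distance from the start of each locus (kb); windows with at least 10 reads in every sample are shown. Small symbols are samples (blue WT, orange DKO), lines join the group means, and grey lines mark gene starts. The alpha and Klf1 loci drop at the starts of Mpg, Nprl3, Hbq1b, Hbq1a, Gcdh, Dnase2a and Gm38426 and just after the Klf1 start. The window of the Hba-a2 start drops less far, to a mean of 44.1% in WT and 47.2% in DKO. The windows that hold the beta globin starts stay high. The low window from 110960001, just past the Hbb-bt start, has as few as 7 reads in a sample and is not shown.

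The promoters of the beta globin genes and of Hba-x had mostly methylated reads, at very low read numbers, while Hba-a1 and Hba-a2 were mixed and uncertain. Over the 7 member promoters that could be placed, a sample had 0 to 16 reads, with a median of 6, so none met the minimum of 20 reads per sample and none was tested. Intervals below are exact Clopper-Pearson 95% intervals on reads pooled over the 3 samples of a group, and where no read was methylated the limit given is instead 3 counts of the total. Both cover counting error only, since reads without molecular identifiers and neighbouring CpGs of 1 read are not independent.

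In the beta cluster, embryonic and adult genes alike had mostly methylated reads. At Hbb-y 9 of 9 reads were methylated in WT (interval 66.4 to 100%) and 16 of 18 in DKO (65.3 to 98.6%). At the adult gene Hbb-bs 23 of 23 reads were methylated in WT (85.2 to 100%) and 21 of 22 in DKO (77.2 to 99.9%). The adult gene Hbb-bt has its only CpG 3 bases after the start, where 11 of 14 reads were methylated in WT and 18 of 18 in DKO. The 3 unmethylated reads were all those of WT replicate 2, and the other 5 samples had 5, 6, 7, 6 and 5 reads, all methylated. At Hbb-bh2, a beta-like gene with 4 promoter CpGs, 37 of 37 reads were methylated in WT and 39 of 41 in DKO.

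The 1 kb windows around these starts gave the same picture with more reads. The window of the Hbb-bt start (6 CpGs) had 100%, 62.5% and 95.0% in WT and 100%, 87.5% and 84.6% in DKO, on 13 to 39 reads. That of Hbb-bs (6 CpGs) had 100%, 81.8% and 90.5% in WT and 100%, 91.3% and 66.7% in DKO, on 6 to 23 reads. That of Hbb-y (3 CpGs) had 88.9%, 100% and 86.7% in WT and 100%, 94.1% and 87.5% in DKO, on 9 to 19 reads. In each of these windows the groups overlapped.

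In the alpha cluster, Hba-x had 18 of 19 reads methylated in WT (74.0 to 99.9%) and 28 of 33 in DKO (68.1 to 94.9%). By sample its level was 100%, 75% and 100% in WT and 57.1%, 100% and 81.8% in DKO, so the groups overlapped. Hba-a1 had 2 reads in all of WT, with none in replicates 1 and 3, and 11 of 17 methylated in DKO. Hba-a2 had 13 of 21 reads methylated in WT and 23 of 25 in DKO, with WT samples at 33.3%, 33.3% and 100% and DKO samples at 81.8%, 100% and 100%. The 1 kb window of the Hba-a1 start had a mean of 64.3% in WT and 65.7% in DKO. That of Hba-a2 had 57.1% and 60.7%, and the groups overlapped in both. These windows were read at 0.105 to 0.495 of the autosomal mean depth, and the part of their near-identical sequence in this was not tested. The starts of Hbq1b and Hbq1a, which encode theta globins and are themselves alike at 286 of 300 bases, had unmethylated CpGs at the start and methylated ones farther upstream. At Hbq1b the 6 CpGs from -39 to 27 had 0 of 120 reads methylated in WT and 0 of 111 in DKO, and the 7 CpGs from -230 to -113 had 52 of 88 in WT and 64 of 132 in DKO. At Hbq1a the 4 CpGs from -39 to 27 had 0 of 51 in WT and 0 of 60 in DKO, and the 4 from -230 to -168 had 19 of 31 in WT and 40 of 55 in DKO. The level of a sample over all 300 bases therefore moves with which of these CpGs it read. Hbq1b, with 13 CpGs, had 32.7%, 23.6% and 21.8% in WT and 18.7%, 34.7% and 18% in DKO. Hbq1a, with 8 CpGs, had 27.0%, 58.3% and 6.06% in WT and 39.1%, 31.9% and 39.1% in DKO, where WT replicate 2 had 3 of its 12 reads at the start and WT replicate 3 had 25 of 33. In both the groups overlapped.

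The non-globin genes that flank the alpha genes had promoters of low methylation. Mpg had 6.25%, 4.71% and 8% in WT and 4.14%, 11.5% and 5.98% in DKO, and its groups overlapped. Nprl3 had 0.0%, 2.86% and 0.0% in WT and 2.94%, 4.04% and 4.90% in DKO. The DKO samples at Nprl3 all exceeded the WT samples, but the promoter was not tested and nearly all its methylated reads came from 1 CpG, at -231. That CpG had 2 of 2 reads methylated in WT, both in replicate 2, with no read in WT replicates 1 and 3, and 14 of 20 in DKO. The other 19 CpGs had 0 of 146 reads methylated in WT and 1 of 348 in DKO. Across all tested promoters the DKO samples were all above WT in 3.87% and all below in 0.73%.

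At Klf1 the sequence before the start and the sequence after it were opposites. The 3 CpGs of the promoter printed above, at -165, -120 and -100, had 9 of 12 reads methylated in WT (42.8 to 94.5%) and 18 of 18 in DKO (81.5 to 100%), with no read in WT replicate 2. The 1 kb window that holds these CpGs and the start (8 CpGs, 9 to 51 reads) had 93.1%, 77.8% and 70.0% in WT and 82.4%, 100% and 100% in DKO. The 1 kb window from 120 to 1119 bases after the start, with 39 CpGs, had 1.90%, 5.04% and 16.4% in WT and 5.12%, 7.02% and 10.5% in DKO. The next window, from 1120 to 2119, with 61 CpGs, had 5.88%, 6.41% and 3.57% in WT and 6.63%, 3.77% and 10.6% in DKO. The low methylation of Klf1 thus lay within the gene, which is 3.31 kb long in RefSeq, and not in the window of its start. The window from 2120 to 3119 returned to a WT mean of 95.4% ± 6.01 and a DKO mean of 94.9% ± 1.68 (SD, n = 3 each). The window from -1880 to -881 before the start had 95.2% ± 1.95 and 96.4% ± 2.44. In all of these windows the groups overlapped.

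The neighbours of Klf1 were low at the start itself. Gcdh, a mitochondrial dehydrogenase of lysine breakdown, had 0 of 149 reads methylated in WT, which allows a level of up to 2.01%, and 0 of 174 in DKO, which allows up to 1.72%. Dnase2a, the lysosomal DNase that macrophages use to clear nuclei expelled by red cell precursors, had 0 of 206 reads methylated in WT, which allows up to 1.46%, and 2 of 322 in DKO. The start named Gm38426 had 4 of 305 in WT and 2 of 399 in DKO. These 3 promoters, with Gm39213, Mpg and Hbq1b, were the 6 of the 21 promoters placed in the loci that were tested. None of the 6 was called by the quasi-binomial test, 0 had an unadjusted p under 0.05, and the lowest adjusted p was 0.805. Of all tested promoters 0.0% were called in either direction, so this test made no call anywhere, and limma on log2 ratios called 0 as well.

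**Figure D3:**
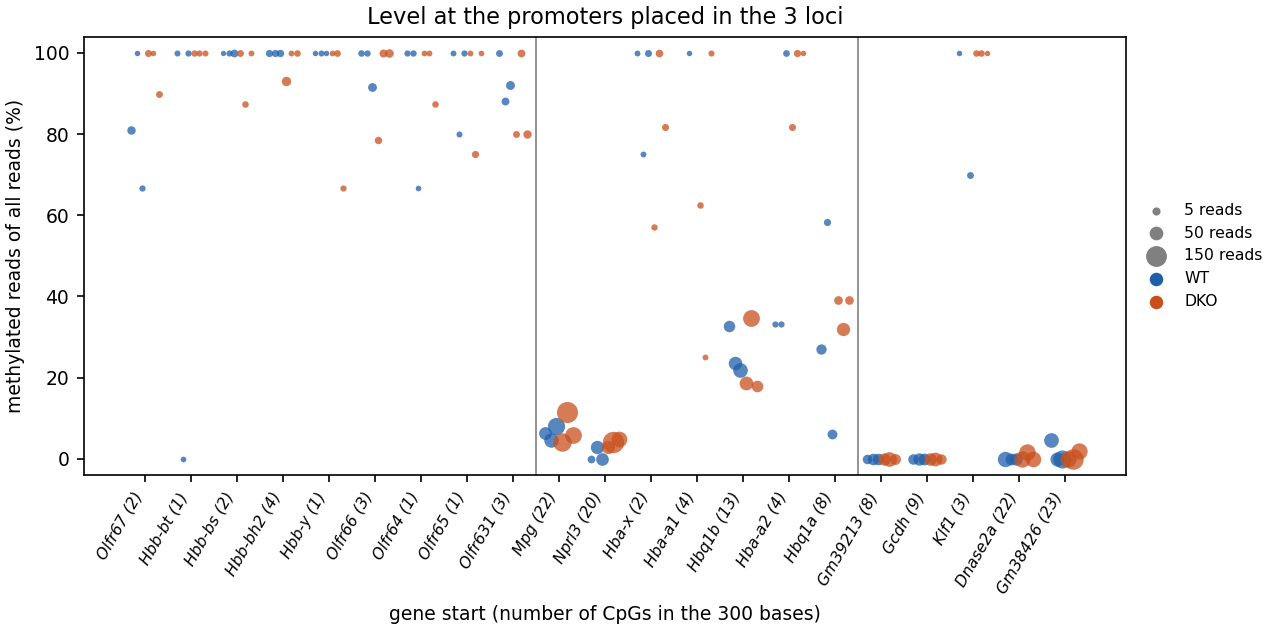
Methylation level (percent of reads methylated) over 300 bases at the gene starts placed in the beta cluster (left), alpha cluster (middle) and Klf1 locus (right), ordered by position, with the number of CpGs in brackets. Each disc is a sample (blue WT, orange DKO) and its area grows with its reads; globin starts with 4 or fewer CpGs rest on few reads and mostly sit high, with low samples at Hba-a1, Hba-a2 and Hbb-bt, and Mpg, Nprl3, Gcdh and Dnase2a sit near 0.

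The 1 kb windows were then compared between the groups. Of the 239 windows, 63 could be tested, with 3 or more CpGs and a minimum of 20 reads per sample: 6 of 129 in the beta cluster, 41 of 85 in the alpha cluster and 16 of 25 in the Klf1 locus. The quasi-binomial test, with Benjamini-Hochberg adjustment over all 774732 autosomal windows tested, called 0 of the 63 at an adjusted p under 0.05 and a difference of at least 10 points. Over all autosomal windows it called 0.49% higher in DKO and 0.00723% lower, and at these shares 63 windows would hold fewer than 1 call. The lowest adjusted p was 0.176. Limma on log2 ratios called 0 of all 774732 windows, so its 0 at the loci shows nothing about these loci. By the quasi-binomial test 8 windows had an unadjusted p under 0.05, all higher in DKO (7 alpha, 1 Klf1), against 7.32% higher and 1.95% lower over all windows. With limma there were 7, of which 5 were higher, beside 40094 higher and 15048 lower of all 774732 windows.

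In the alpha cluster, the DKO samples all exceeded the WT samples in 7 of 41 windows, or 17.1%, and below in 1; over all tested windows the shares were 9.05% and 3.75%. The median difference over the 41 windows was 1.24 points, beside 0.928 points over all windows. In the Klf1 locus 2 of 16 windows were apart upwards and 1 downwards, with a median of 0.50 points. In the beta cluster 0 of 6 were apart upwards and 1 downwards, with a median of -2.88 points. The alpha count depends on the samples and the reads asked for. It was 12 of 45 (26.7%) without WT replicate 2 and 11 of 45 (24.4%) without DKO replicate 1, where 15.0% and 14.5% of all windows were apart upwards. The other omissions gave 18.2% to 20.9%, beside 13.9% to 15.3% of all windows. With a minimum of 40 reads it was 2 of 14 (14.3%), beside 11.1% of all windows. With a minimum of 10 reads it was 8 of 67 (11.9%), beside 7.53%.

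All 7 tested 1 kb windows of the alpha cluster that were apart upwards lay between the Mpg and Nprl3 promoters, a stretch that was singled out after the values were seen and is therefore described without a test. Of its 24 tested windows, 16 (66.7%) had a higher mean in DKO, beside 58.2% of all tested windows, and the median level was 93.1% for WT and 96.1% for DKO. In the other 17 windows of the alpha locus, 7 had a higher mean in DKO, 0 were apart upwards and 1 downwards. Windows beyond the stretch were apart upwards when read otherwise: at 2 kb, chr11:32192001-32194000 between Hbq1b and Hba-a2 had 82.0%, 85.7% and 75.7% in WT and 88.1%, 94.8% and 90.8% in DKO (difference 10.1 points, adjusted p = 0.471 by the quasi-binomial test). So were the 1 kb windows from 32193001 and 32203001, by 15.4 and 32.7 points, which had too few reads to be tested. Nprl3 is transcribed towards Mpg and is 35.7 kb long in RefSeq, so most of the stretch is its gene body.

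The 3 alpha windows with the widest differences show the pattern. The window chr11:32138001-32139000, 28.7 to 29.7 kb inside Nprl3, had 65.9%, 73.5% and 66.7% in WT and 76.3%, 92.5% and 87.8% in DKO. The window chr11:32166001-32167000, 0.707 to 1.71 kb inside the gene, had 78.8%, 75% and 74.3% in WT and 93.0%, 89.1% and 90.0% in DKO. The window chr11:32131001-32132000, 35.7 to 36.7 kb from the Nprl3 start and so at or past the end of the gene, had 84.0%, 75% and 85.7% in WT and 97.8%, 97.2% and 92.5% in DKO. In each of the 3 all DKO samples lay above all WT samples. The differences were 16.8 ± 5.40, 14.7 ± 1.83 and 14.3 ± 3.72 points (SE), with adjusted p = 0.42, 0.464 and 0.176 by the quasi-binomial test, so none passed. Leaving out 1 sample at a time gave adjusted p of 0.236 to 0.707 for these windows. Over the CpGs read in every sample (8, 4 and 4), each weighted equally, the differences were 14.8, 6.25 and 6.25 points, and the groups overlapped in all 3 windows.

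**Figure D4:**
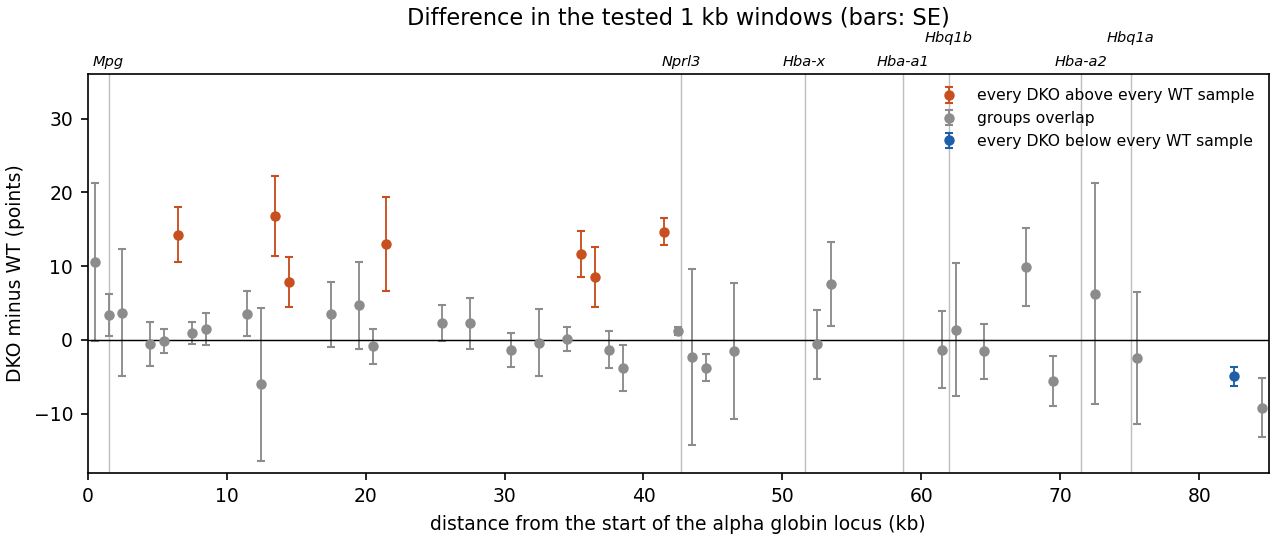
Difference of the group means, DKO minus WT in percentage points, in the 41 tested 1 kb windows of the alpha globin locus, against the distance from its start (kb). Bars are ± SE, orange marks windows with the DKO samples all above the WT samples, blue the reverse, grey overlapping groups, and thin lines gene starts; the 7 orange windows of this set all lie between Mpg and Nprl3.

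With windows of 2 kb, where more windows had enough reads, 1 window was called, and 10 had an unadjusted p under 0.05, all higher in DKO (7.13% higher and 2.07% lower over all 2 kb windows). The called window was chr11:32160001-32162000, 5.71 to 7.71 kb inside Nprl3, with 23 CpGs and 77 to 185 reads per sample. Its level was 86.2%, 92.9% and 81.8% in WT and 97.4%, 96.8% and 98.4% in DKO. All DKO samples lay above all WT samples, and the difference was 10.6 ± 3.25 points (SE), with an adjusted p = 0.041 by the quasi-binomial test. The 2 kb windows were not refitted with limma, with replicate numbers in the model or with a sample left out. Whether the call depends on these choices was thus not tested. At 1 kb, limma and the model with replicate numbers each called 0 windows over all autosomes. Over all 2 kb windows 0.905% were called higher and 0.0324% lower, against 1 of 75 tested in the 3 loci. Its 1 kb parts, which differed by 11.6 and 8.52 points, did not pass (adjusted p = 0.235 and 0.438). No other window of the 3 loci was called at this width: the next lowest adjusted p was 0.12, at chr11:32146001-32148000, 19.7 to 21.7 kb inside Nprl3. That window had 56.6%, 75% and 66.7% in WT and 84.1%, 94.7% and 77.6% in DKO, a difference of 19.4 ± 7.30 points (SE). With equal weights for the 13 and 11 CpGs read in every sample, these windows differed by 15.8 and 23.1 points, and in both the DKO samples stayed above the WT samples.

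In the alpha cluster 5 of 39 windows of 2 kb, or 12.8%, were apart upwards and 3, or 7.69%, downwards, beside 8.76% and 4.06% over all 2 kb windows. Of the 3 downward windows, chr11:32162001-32164000 lies inside Nprl3 next to the called window, with a mean of 98.2% in WT and 95.2% in DKO. The windows from 32206001 and 32208001, past the Hbq1a start, differed by -9.08 and -8.48 points. By the quasi-binomial test the adjusted p of the 3 were 0.737, 0.575 and 0.563. In the Klf1 locus 0 of 13 were apart either way.

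The wider windows also opened more of the beta cluster, with 23 of 65 tested instead of 6 of 129. In 3 of the 23, or 13.0%, the DKO samples all exceeded the WT samples, and in 1 all were below. The median difference was 1.90 points, beside 0.746 over all 2 kb windows, which turns the sign of the beta median seen in the 6 narrower windows. The window chr7:110992001-110994000, between the Hbb-bh2 and Hbb-y starts, had 80.4%, 85.7% and 90.0% in WT and 94.7%, 100% and 100% in DKO. It differed by 12.9 ± 3.28 points, with an adjusted p = 0.364 by the quasi-binomial test. The window chr7:111058001-111060000 was the least methylated of the tested beta windows. It had 21.7%, 27.3% and 38.9% in WT and 40.6%, 51.3% and 58.8% in DKO, a difference of 20.9 ± 7.31 points (adjusted p = 0.517 by the same test). Both windows were apart and neither passed, on 21 to 46 reads per sample.

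The low window lies beyond the globin genes, among olfactory receptor genes, which flank the beta cluster in mammals and are read in sensory neurons of the nose. Its lowest CpG, at 111058705, 3849 bases after the Olfr65 start, had 0 of 18 reads methylated in WT, which allows up to 16.7%, and 0 of 16 in DKO, which allows up to 18.8%. The CpGs at 111058785 and 111058796 had 0 of 16 each in WT, and 2 of 14 and 3 of 15 in DKO. The methylated reads at both came from DKO replicate 2. In the 28.7 kb between the Hbb-y and Olfr66 promoters, the side of the cluster on which the locus control region lies, methylation was high on average. Its 127 CpGs had 85.3%, 86.4% and 86.8% in WT and 84.8%, 88.9% and 89.0% in DKO, and the groups overlapped (difference 1.42 ± 1.45 points, exact permutation p = 0.4). Lower windows of 2 kb broke this stretch. The one from 111022001 had 74.5%, 65.2% and 64.7% in WT and 70.0%, 78.1% and 76.0% in DKO. The one from 111008001, on 12 to 34 reads, had 78.6%, 33.3% and 70.8% in WT and 72.7%, 52.9% and 60.9% in DKO. The groups overlapped in both. Within the latter, the CpG at 111009691 had 6 of 13 reads methylated in WT and 0 of 11 in DKO, which allows up to 27.3%.

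The beta windows of 1 kb that stood out did so by small amounts. The 6 tested windows were all methylated at 80% or more. The lowest were chr7:111061001-111062000 (mean over the 6 samples 87.3%), chr7:111063001-111064000 (92.0%) and chr7:111030001-111031000 (92.9%), all near olfactory receptor starts. The widest difference was at chr7:111063001-111064000, around the Olfr631 start, with 100%, 93.5% and 96.4% in WT and 89.2%, 87.0% and 86.0% in DKO. There the DKO samples all fell below the WT samples, and the difference of -9.24 ± 2.09 points had an adjusted p = 0.629. The next were chr7:111031001-111032000, at 6.06 points, and chr7:111006001-111007000, at -3.37 points, both with overlapping groups and an adjusted p of 0.584 and 0.967 by the quasi-binomial test. No tested 1 kb window of the beta cluster held a globin gene start.

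In the alpha and Klf1 loci most of the least methylated windows held gene starts. The lowest in the alpha cluster were chr11:32167001-32168000 at the Nprl3 start (mean over the 6 samples 0.960%), chr11:32126001-32127000 at the Mpg start (5.12%) and chr11:32200001-32201000 at the Hbq1a start (22.8%). In the Klf1 locus they were chr8:87432001-87433000 at the Dnase2a start (0.235%), chr8:87437001-87438000 at the Gm38426 start (5.50%) and chr8:87427001-87428000 inside Klf1 (6.15%). At the Mpg start the level was 2.90%, 1.90% and 5.47% in WT and 2.88%, 11.9% and 5.63% in DKO, where DKO replicate 2 stood above the rest. At the Gm38426 start it was 4.17%, 3.25% and 2.06% in WT and 12.1%, 5.97% and 5.49% in DKO, all DKO samples above WT. These differences of 3.39 ± 2.88 and 4.68 ± 2.20 points had adjusted p = 0.422 and 0.516 by the quasi-binomial test.

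The widest differences in the Klf1 locus went both ways. The window chr8:87431001-87432000, from -1653 to -654 before the Dnase2a start, had 82.3%, 77.0% and 79.5% in WT and 89.7%, 83.7% and 97.6% in DKO, a difference of 10.7 ± 4.27 points. The window chr8:87429001-87430000, at the end of Klf1, had 97.1%, 100% and 100% in WT and 92.5%, 85.7% and 92.3% in DKO, a difference of -8.85 ± 2.44 points. In both the groups were apart. The window chr8:87438001-87439000, 767 to 1766 bases after the Gm38426 start, had a WT mean of 78.6% ± 8.10 and a DKO mean of 67.6% ± 9.79 (SD, n = 3 each), with overlapping groups. By the quasi-binomial test their adjusted p were 0.718, 0.551 and 0.728.

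Bins of 10 kb brought in the CpG-poor parts. Of the bins in the 3 loci 21 had 100 reads in every sample, and 0 were called at an adjusted p under 0.05, where 0.588% of all bins were called higher and 0.0156% lower. At an unadjusted p under 0.05 there were 4, all higher in DKO (9.98% higher and 1.66% lower over all bins). With limma on log2 ratios there were 3, all higher, beside 16628 higher and 4419 lower of all 199238 bins. Limma called 0 bins at the loci and 0 over all autosomes. The lowest adjusted p by the quasi-binomial test was 0.163, in the alpha bin from 32140001, inside Nprl3. That bin had 84.4%, 92.5% and 80.6% in WT and 93.9%, 96.0% and 92.1% in DKO. Its groups overlapped by WT replicate 2, and the difference was 8.15 ± 3.68 points. The bin from 32120001, which reaches beyond the locus and holds the Mpg start, had 25.3%, 16.9% and 28.8% in WT and 30.1%, 30.4% and 30.2% in DKO, a difference of 6.61 ± 3.53 points (adjusted p = 0.224 by the same test). The neighbouring bin from 32130001 had 88.5%, 91.0% and 90.3% in WT and 92.3%, 93.8% and 95.6% in DKO, a difference of 3.95 ± 1.19 points (adjusted p = 0.286 by the quasi-binomial test). In the beta cluster the bin from 110990001, between Hbb-bh2 and Hbb-y, had 85.1%, 91.6% and 91.4% in WT and 93.1%, 98.6% and 98.6% in DKO, a difference of 7.41 ± 2.82 points (adjusted p = 0.341). Of the 21 tested bins the DKO samples all exceeded the WT samples in 3, beside 12.6% of all bins. These were the bins named above other than the one from 32140001. In none of the 21 were the DKO samples all below, beside 3.79% of all bins.

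Red cell genes and genes near the loci were followed at their promoters, from a list of 67 genes of which 45 could be placed and 26 tested, with 29 promoters. The list holds 50 red cell genes, Klf1 among them, and 17 genes listed as neighbours of the globin clusters or Klf1, so the tested promoters of Mpg, Hbq1b, Gcdh and Dnase2a, described above, are counted here again. By the quasi-binomial test 0 of the 29 were called and 0 had an unadjusted p under 0.05, beside 3.21% higher and 1.32% lower over all 11783 tested promoters. With limma on log2 ratios 0 were called and 1 had an unadjusted p under 0.05, beside 453 higher and 303 lower of all 11783 promoters. The mean was higher in DKO at 9 promoters, lower at 8 and equal at 12, and the median difference was 0, as over all promoters. Most were unmethylated: 26 of 29 had a mean level under 10%, a class that holds 87.5% of all tested promoters. Of the 50 red cell genes alone, 30 could be placed and 16 tested, with 18 promoters. The mean was higher in DKO at 5 of the 18, lower at 5 and equal at 8, and 16 had a mean level under 10%.

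Among the regulators, 6 of 14 genes were tested. Myb, which keeps progenitors dividing, Zfpm1, a partner of GATA factors, and Ldb1, which joins enhancers to promoters in red cells, had 0.0% in all 6 samples at the tested start. Tal1, a partner of GATA factors in blood cells, had 22.7%, 19.2% and 10.7% in WT and 9.35%, 17.9% and 17.5% in DKO at 1 start, with overlapping groups. Sox6, a repressor of embryonic globin genes, had 0.0%, 4.00% and 4.69% in WT and 3.16%, 1.56% and 0.0% in DKO at 1 start. At a second Sox6 start it had 17.4%, 40% and 53.8% in WT and 97.2%, 54.2% and 62.5% in DKO. The groups were apart there, by a margin of under 1 point between the nearest samples, and the difference of 34.2 ± 16.9 points (SE) did not pass (adjusted p = 0.805 by the quasi-binomial test). Another Sox6 start, read too thinly to test, went the other way, with a mean of 75.9% in WT and 60.4% in DKO and overlapping groups.

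The 4 tested genes of heme synthesis (Alad, Uros, Urod and Ppox) had 0.0% to 4.73% in every sample, the highest being Uros in DKO replicate 2. Of the membrane and receptor genes 3 of 16 were tested: Tfrc, the transferrin receptor, and Epb41, a membrane skeleton protein, had at most 0.943% in any sample at the tested starts, and Add2, another skeleton protein, had a WT mean of 8.11% ± 6.85 and a DKO mean of 6.0% ± 5.61 (SD, n = 3 each). Among the remaining red cell genes 3 of 11 were tested (Blvrb, Prdx2 and Bpgm), with at most 0.680% in any sample at the tested starts. Another start of Blvrb, read too thinly to test, had 100%, 100% and 83.3% in WT and 100%, 90% and 81.2% in DKO. Snrnp25, a subunit of the minor spliceosome whose gene lies near the alpha cluster, had at most 0.662% in any sample. Polr3k, a subunit of RNA polymerase III, was on the list as a neighbour too, but it was placed on chromosome 2; it had 0.0% in all samples. Near Klf1, Calr and Farsa had 0.0% in all samples, Mast1 at most 2.33% and Syce2 at most 8.22%. Other placed starts fell short of the reads needed, and few CpGs did not set them apart. Among them were a second Epb41 start (37 CpGs) and Zbtb7a (31 CpGs), with at most 5.13% and 9.0% in any sample. Epor and Pklr, with 7 and 8 CpGs, also fell short. Epor, the erythropoietin receptor, had 76.3%, 50% and 68.4% in WT and 88.9%, 60% and 84.0% in DKO. Pklr, red cell pyruvate kinase, had 5.88%, 25.0% and 66.7% in WT and 61.7%, 64.6% and 54.8% in DKO, where WT replicate 3 lay above the rest. The groups overlapped at both.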

How the data were processed

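Per the labels' protocols, sheared, adapter-ligated DNA was bisulfite-treated and amplified. The authors deposited 1 table of raw counts: for each of 20451903 CpGs (mm9) and each sample, how many reads covered it and how many of them were methylated. The submitters' processing notes name BSMAP 2.74 and mm9. The sources used here state neither duplicate removal nor call filters; duplicates would make counting error larger than the reads imply. There were 0 columns of other samples.

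Reads were summed over 1 kb windows (autosomes; 3 or more CpGs, and a minimum of 20 reads per sample), 10 kb bins (at least 100 reads) and promoters. Each unit was fitted with a quasi-binomial model of methylated against unmethylated reads by group, with dispersion moderated by limma 3.58.1 (squeezeVar, floor 1; R 4.3.3), an F test on the deviance and Benjamini-Hochberg adjustment over all units tested. Units were called at an adjusted p under 0.05 and a difference of at least 10 points (bins: no minimum). Locus levels were compared by two-sided exact permutation tests. Alternatives were 10 or 40 reads, windows of 500 bp and 2 kb, limma on log2 ratios (pseudocount 0.5), a replicate block, other CpG sets and leaving out each sample. Equal weights for CpGs in single windows, CpGs near and far from promoter starts, and the list without neighbours were added after the data were seen.

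No mm9 genome was used. RefSeq promoter sequences (GRCm38.p6, 300 bases) were placed on the mm9 table by the spacing of their CpGs, which had to match at 1 place only: 21143 of 31396 autosomal entries. At the 3 loci all promoters of a locus were laid together, and 18 of 18, 73 of 73 and 59 of 59 CpGs matched listed ones (the next best place matched 3, 12 and 12). Gene positions on mm9 come from these matches, and gene lengths from RefSeq.

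The members, gene list and named windows (the 3 lowest and 3 most different tested windows of each locus, and calls) were chosen with earlier results of these data known. A planned ranking of promoters by likeness to the members was not made, since no member promoter had 20 reads in every sample. Windows of 2 kb, the Mpg to Nprl3 stretch, 10 kb bins and promoters beyond this rule were chosen after their values were seen.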

Additional observations from a re-analysis of the deposited data

How the results depend on the processing

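The count of called 1 kb windows at the 3 loci was 0 under other read minimums, other minimum differences and each sample left out. At 10 and 40 reads, 0.0221% and 0.112% of all windows were called higher in DKO. With a sample left out the share was 0.00368% to 0.0914%. At such shares the loci would hold fewer than 1 call, and a stricter minimum difference cannot add calls, so these counts show little about the loci. Windows of 2 kb gave 1 call, and were not refitted with limma, a replicate block or a sample left out. With 500 bp windows and with limma the count was 0 as well. Those settings called 0 windows over all autosomes, so their 0 at the loci shows nothing about these loci. The count of called 10 kb bins was 0 under all alternatives, of which limma called 0 bins over all autosomes. The other alternatives called 0.0442% to 0.748% of all bins higher in DKO. Counts of called promoters in the loci and in the red cell list were also 0. No setting called a promoter on any autosome, so these counts could not have differed. When each sample was left out in turn, the lowest adjusted p was 0.236 for windows, 0.0952 for bins and 0.879 for promoters in the loci; the lowest under any alternative for bins was 0.0933, with the replicate block. Leaving out 1 sample at a time, the DKO minus WT difference ranged from 1.25 to 2.43 points for the beta cluster, 2.14 to 4.06 for the alpha cluster and -1.0 to 1.39 for the Klf1 locus, and the change in the beta minus alpha gap ranged from -2.62 to 0.29. The Klf1 difference was also negative, at -1.46 points, over CpGs read at least 3 times by each sample; the cause was not tested. Shallow reading limits the globin promoters most: at 0 to 16 reads per sample only very wide differences could show.

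Same-numbered WT and DKO samples did not deviate together (r across windows 0.0033 to 0.0036, beside -0.0020 to -0.0014 for other pairs), so the numbers were not taken to pair them, although each sample correlated best with its own number. With the replicate block 0 windows, 0 bins and 0 promoters were called at the loci, as without it. Over all autosomes the block called 0 windows of 1 kb and 0 promoters, so only the bins could have shown a call. The differences of 1.75, 3.15 and 0.23 points and the gap change of -1.39 points stayed the same by construction, with exact sign-flip p = 0.25, 0.25, 1.0 and 0.75 (0.25 is the smallest possible).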

Other observations

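Among the CpGs with at least 10 pooled reads in each group, 5 were higher in DKO by at least 50 points (4 in the alpha cluster, 1 in the Klf1 locus, 0 in the beta cluster) and 0 were lower, of 890 such CpGs in the 3 loci (0.562%). Over all 8214526 autosomal CpGs read that deeply, 0.838% were higher and 0.247% lower by this amount, so the share at the loci was not above the background. They were chosen by their values, so they are given without a test. A pair 7 bases apart lies 19.9 kb inside Nprl3, where a read can cover both. At 32147829 the methylated reads were 2 of 20 in WT and 13 of 19 in DKO, and at 32147836 they were 0 of 19 in WT and 10 of 20 in DKO. All 3 DKO samples contributed methylated reads at both. At 32203414, 3345 bases after the Hbq1a start, 0 of 20 reads were methylated in WT and 11 of 19 in DKO, again with methylated reads in all 3 DKO samples. At 32178576, 1976 bases after the Hba-x start, 7 of 14 were methylated in WT and 14 of 14 in DKO. At 87436475, at -759 from the Gm38426 start, 6 of 12 were methylated in WT and 15 of 15 in DKO, with no read in DKO replicate 1.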
